A study of Homo sapiens with 9 samples.

Results

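The matrix metalloproteases (MMPs), the ADAM and ADAMTS metalloproteases and the tissue inhibitors of metalloproteases (TIMPs) were followed across the transcriptome of A498 cells depleted of ARNT or BMAL1. Members were every gene of the count table whose symbol was MMP, ADAM or ADAMTS followed by a number, together with TIMP1, TIMP2, TIMP3 and TIMP4. This rule used names alone and found 65 of 27673 genes, namely 22 MMP, 20 ADAM, 19 ADAMTS and 4 TIMP genes. A498 is an established human line of clear cell renal cell carcinoma (ccRCC) that lacks functional VHL, so that HIF2α is stable at normal oxygen. Cells carried a lentiviral short hairpin RNA against a control sequence (shControl, genotype given as WT), against BMAL1 (shBMAL1) or against ARNT (shARNT), and all 3 groups went through the same puromycin selection, with no other treatment. Each group had 3 biological replicates, and 9 libraries were sequenced in all. Each target was represented by 1 hairpin group, so an effect of a hairpin on other transcripts cannot be told apart from the loss of its target. The study asked whether BMAL1, besides ARNT, contributes to HIF2α-dependent gene expression.

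MMPs, ADAMs and ADAMTS enzymes are zinc-dependent proteases that cleave the extracellular matrix and proteins at the cell surface. MMPs are made as inactive precursors that proprotein convertases, plasmin or other MMPs activate, membrane-anchored ADAMs release the outer parts of growth factors and receptors, and secreted ADAMTS enzymes process collagens and proteoglycans. TIMPs occupy the active site of these enzymes and thereby set how much of the protease pool can act. ARNT pairs with HIFα subunits to bind hypoxia response elements, and BMAL1 pairs with CLOCK to bind E-boxes.

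The RefSeq promoter table for GRCh38.p14 matched 38 of the 65 members, and the 250 bases before each start were searched on both strands. The core of the hypoxia response element was searched as ACGTG or GCGTG, the E-box as CACGTG, which also counts as a hypoxia core, and the AP-1 site, a motif long known in MMP promoters, as TGAGTCA. The hypoxia core stood in 19 of 38 member promoters (50%) and in 43.1% of all 27305 promoters. The E-box stood in 5 of 38 (13.2%) and in 6.49% of all, and the AP-1 letters in 1 of 38, that of MMP7, and in 4.16% of all. Among members described below, the core was present in 9 of 14 promoters of genes lower in shARNT, in 2 of 7 of genes higher there and in 1 of 3 of genes not called. The 9 include MMP10, which passed the low-count filter described below only with the shBMAL1 libraries. These are few promoters, the shares among all lower and all higher genes were not computed, and the difference was not tested. A match is a string of letters in a window and was not tested for binding. The windows printed here belong to the most abundant inhibitor (TIMP1), to proteases that were lower in shARNT (ADAMTS14, ADAM12, MMP14, ADAM10, MMP7) and to a protease that was higher there (ADAM17). They lie at chrX:47582186-47582435 on the plus strand (TIMP1), chr10:70672296-70672376 on the plus strand (ADAMTS14), chr10:126388627-126388707 on the minus strand (ADAM12), chr14:22836455-22836535 on the plus strand (MMP14), chr15:58749817-58749897 on the minus strand (ADAM10), chr2:9555890-9555980 on the minus strand (ADAM17) and chr11:102530777-102530857 on the minus strand (MMP7), all upstream of the annotated start. Capitals mark the hypoxia core or its reverse complement, the E-box in ADAM10 and the AP-1 letters in MMP7.
TIMP1: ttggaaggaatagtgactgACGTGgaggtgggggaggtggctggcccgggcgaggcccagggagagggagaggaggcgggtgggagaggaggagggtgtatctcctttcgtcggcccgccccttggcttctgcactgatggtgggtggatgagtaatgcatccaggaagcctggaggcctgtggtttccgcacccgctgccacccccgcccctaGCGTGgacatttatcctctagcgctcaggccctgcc
ADAMTS14: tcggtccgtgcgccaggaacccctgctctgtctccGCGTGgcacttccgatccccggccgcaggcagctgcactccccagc
ADAM12: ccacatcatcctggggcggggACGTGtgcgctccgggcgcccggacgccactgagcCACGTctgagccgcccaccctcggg
MMP14: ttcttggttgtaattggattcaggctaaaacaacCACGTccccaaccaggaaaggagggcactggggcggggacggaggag
ADAM10: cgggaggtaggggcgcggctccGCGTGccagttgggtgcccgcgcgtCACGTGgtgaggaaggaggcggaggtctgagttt
ADAM17: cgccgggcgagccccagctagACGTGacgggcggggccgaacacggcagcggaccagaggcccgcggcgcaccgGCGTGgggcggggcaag
MMP7: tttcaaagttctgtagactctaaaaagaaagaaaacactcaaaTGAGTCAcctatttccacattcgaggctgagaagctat

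Library totals ranged from 35269851 to 36099075 counts, so depth was even across groups. Levels are given as CPM, read counts relative to a library size to which TMM factors (trimmed mean of M values) were applied, which lay between 0.932 and 0.944 for shControl, 0.961 and 0.971 for shBMAL1, and 1.10 and 1.11 for shARNT. The targeted genes followed the labels. ARNT had 50.5 ± 2.24 CPM (SD, n = 3) in shControl and only 9.47 ± 0.432 CPM in shARNT, and BMAL1, listed as ARNTL, went down from 16.3 ± 0.395 CPM to 5.02 ± 0.789 CPM with its own hairpin. ARNT was also lower in shBMAL1, at 32.3 ± 1.52 CPM, and ARNTL was higher in shARNT, at 23.8 ± 1.31 CPM. All 8 markers of renal carcinoma cells had counts, and their summed level, mostly VIM, was 7801 to 7855 CPM in the control libraries, 5744 to 6225 CPM with BMAL1 depleted and 2073 to 2227 CPM with ARNT depleted. The markers did not move together in shARNT, where VIM fell from 5974 ± 28.6 to 812 ± 28.6 CPM, PAX8 rose 2.79-fold (adjusted p = 1.99e-14) and KRT18 was not called, with 566 ± 1.78 and 563 ± 23.1 CPM. Of 5 fibroblast markers, LUM had no count, and COL3A1, DCN and PDGFRA had at most 12, 10 and 10 counts in any library. The summed level, nearly all COL1A1, was 230 to 243 CPM in the control libraries. It was 33.9 to 37.0 CPM with BMAL1 depleted and 40.6 to 50.7 CPM with ARNT depleted. Endothelial markers summed to at most 3.68 CPM in any library. In the leukocyte list, CD3E had no count and PTPRC at most 12 counts in any library, while CD68 ranged from 136 to 148 CPM in shARNT and from 1753 to 1904 CPM in the other libraries. The part of these marker shifts in the results below was not tested, and in bulk RNA fewer cells of a type and less RNA per cell cannot be told apart.

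Of the 65 members, 40 passed the low-count filter and were tested, 17 had counts too low for a test, and 8 had no count in any library (ADAM2, ADAM18, ADAM30, ADAMTS17, ADAMTS20, MMP12, MMP26 and TIMP3). A count of 0 allows a level of up to 0.0831 to 0.0851 CPM, taken against unscaled library totals, from counting error alone. The members together held 0.426% to 0.441% of all counts of a library in shControl, against 0.557% to 0.564% for shBMAL1 and 0.287% to 0.299% for shARNT, and the ranges of the groups did not overlap. Abundant genes weigh most in this sum, and ADAM9 alone held 49701 of the 155611 member counts in shControl replicate 1. Per kilobase of the canonical transcript, TIMP1 was the most abundant member in shControl at 720 ± 9.80 CPM per kb, followed by ADAM9 at 349 ± 12.3, MMP14 at 197 ± 2.29, MMP7 at 168 ± 3.77 and ADAM15 at 121 ± 1.89 CPM per kb. The next in order were ADAM10 (36 ± 1.93), ADAMTS10 (32.5 ± 3.70), TIMP2 (32.0 ± 1.16) and ADAM17 (28.3 ± 1.08 CPM per kb), and the levels of ADAMTS10 and TIMP2 did not differ beyond their spread. TIMP1 and ADAM9 ranked first and second in every group. MMP7 passed MMP14 in shBMAL1, with 351 against 249 CPM per kb, and stood below it in shControl and shARNT. In shARNT, TIMP2 and ADAM17 stood above ADAM10, at 54.2 and 41.0 against 24.0 CPM per kb.

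**Figure D1:**
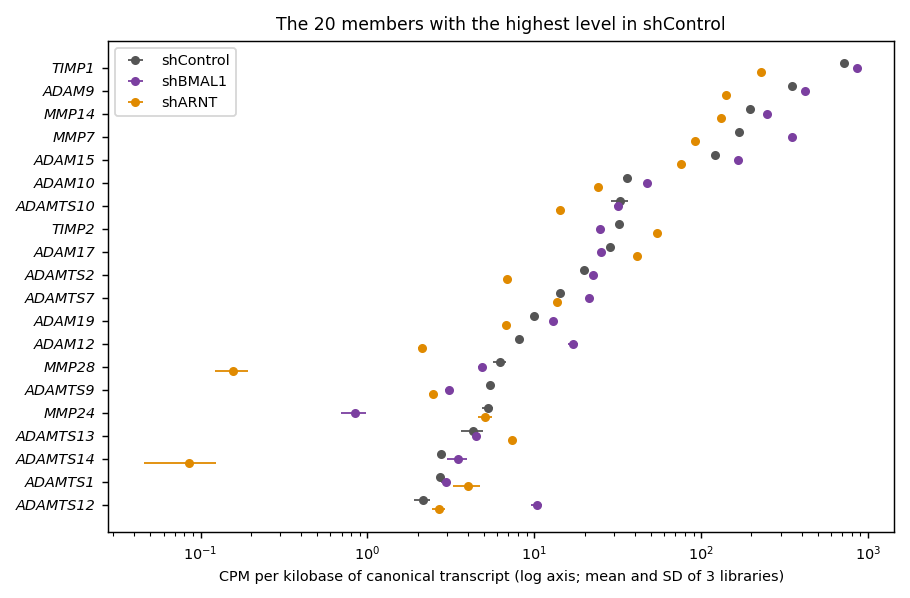
Level per kilobase of canonical transcript (CPM per kb, log axis) of the 20 members highest in shControl, with points for the mean and bars for the SD of 3 libraries in each group. TIMP1 is highest in all groups, at 720 CPM per kb in shControl and 230 in shARNT, and MMP28 and ADAMTS14 have the widest gap between shARNT and the other groups.

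Genes were called at an adjusted p under 0.1 from edgeR's quasi-likelihood test with Benjamini-Hochberg adjustment over all 15551 genes tested. In shARNT against shControl, 11 members were higher, 22 were lower and 7 were not called. The called share of 82.5% lay near the background of 81.8% of all genes tested (40.5% higher and 41.3% lower), and the members' median log2 fold change was -0.58 against -0.01 for all genes. Scaling by library size alone moved the median of all genes to 0.23 and the higher share of all calls from 49.6% to 60.5%, and it called 14 members higher and 22 lower. In shBMAL1 against shControl, 17 members were higher, 13 were lower and 10 were not called, a called share of 75.0% beside a background of 63.3% (31.9% higher and 31.5% lower), with a median of 0.09. Changes of at least 2-fold were called for 17 of 40 members in shARNT (background 31.5%) and for 12 of 40 in shBMAL1 (background 10.2%), and for 24 of 40 in the direct contrast described next (background 30.8%). Both comparisons used the same control libraries. The direct contrast of shARNT with shBMAL1 compares the depletions with each other, within the same fit of all 9 libraries, and called 12 members higher, 25 lower and 3 not, with a called share of 92.5% (background 81.2%, 40.1% higher and 41.1% lower) and a median of -0.96. A fit of the 6 depleted libraries alone also gave 12 higher and 25 lower. Of the 40 tested members, 5 passed the low-count filter only with the libraries of 1 group, namely ADAM21 and ADAMTS5 with shARNT and ADAMTS6, MMP1 and MMP10 with shBMAL1, so that they had to differ between groups. They hold 2 of the higher and 2 of the lower calls in shARNT, 3 and 1 in shBMAL1, and 2 and 3 in the direct contrast. All of these calls were at least 2-fold. The counts of 2-fold changes given above include them and so rest in part on the filter. The CPM ranges of the groups did not overlap for 34, 29 and 37 of the 40 members in the same 3 comparisons, beside backgrounds of 79.8%, 62.2% and 79.6%.

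**Figure D2:**
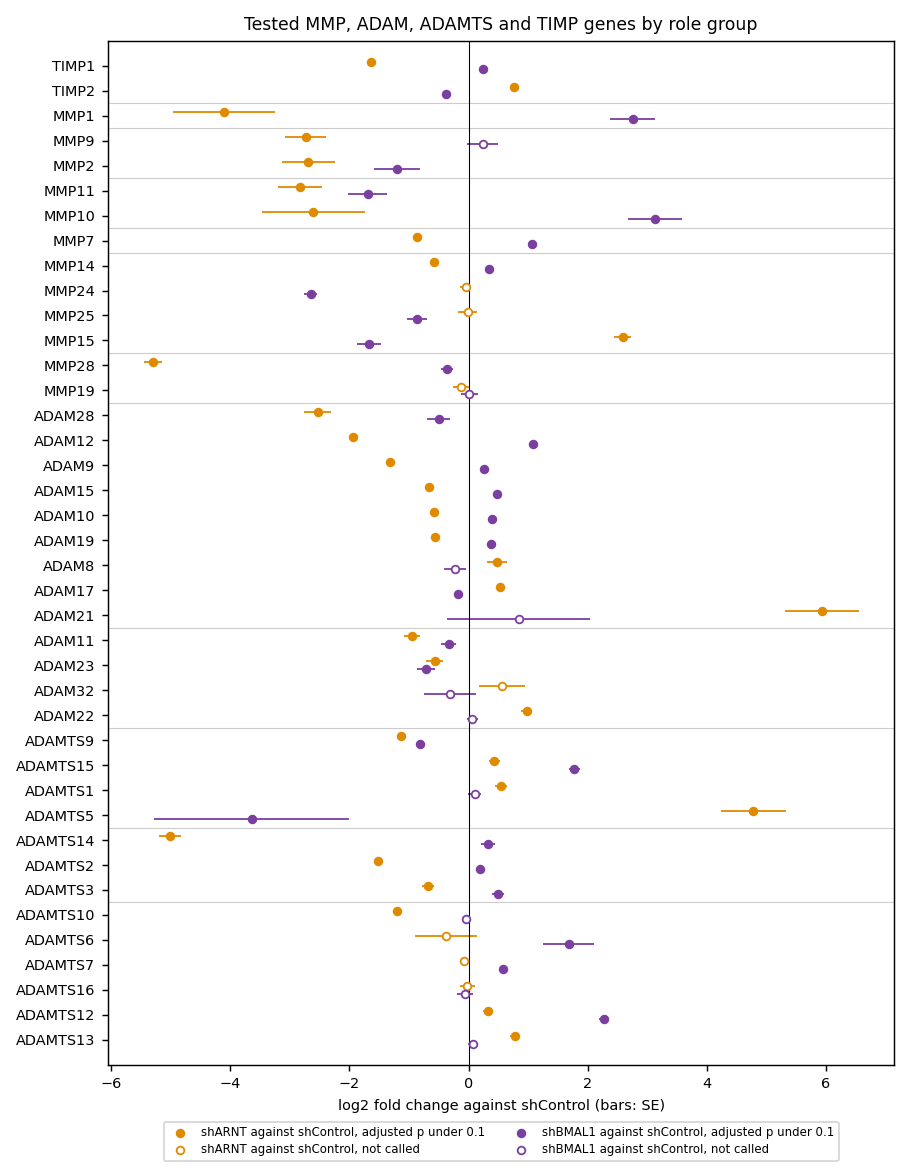
Log2 fold change against shControl (horizontal axis, bars are SE) of the 40 tested members, ordered by role, for shARNT (orange) and shBMAL1 (purple), with filled points at an adjusted p under 0.1. In shARNT, 22 points are filled on the lower side and 11 on the higher side, and in shBMAL1 13 and 17. The points of ADAM21, ADAMTS5, MMP1 and MMP10 rest in part on groups with 0 to 4 counts in all and do not bound a fold.

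Of the inhibitors, TIMP1 fell to 31.9% of its shControl level in shARNT while TIMP2 rose, and both shifted less and the other way in shBMAL1. TIMP1 (ENSG00000102265, chrX:47441807-47446188, GRCh37, plus strand), a broad inhibitor of secreted MMPs, had 545, 560 and 555 CPM in shControl, 663, 672 and 636 CPM in shBMAL1, and 173, 177 and 180 CPM in shARNT. No library of one group reached the range of another. The log2 fold change of TIMP1 was -1.65 ± 0.0362 (SE) for shARNT (adjusted p = 3.58e-19) and 0.25 ± 0.0350 for shBMAL1 (adjusted p = 4.61e-06). TIMP2 (chr17:76849059-76921469, minus strand), which inhibits MMP2 and also takes part in its activation by MMP14, had 119, 119 and 112 CPM in shControl, 89.5, 94.6 and 86.6 CPM in shBMAL1, and 190, 201 and 204 CPM in shARNT. Again the 3 groups did not overlap. TIMP2 was higher in shARNT, with a log2 fold change of 0.76 ± 0.0452 (adjusted p = 3.5e-12), and lower in shBMAL1, with -0.37 ± 0.0462 (adjusted p = 8.29e-07). TIMP3, which binds the matrix and inhibits ADAM17, had 0 counts in all 9 libraries, and TIMP4 had 1 count in 1 shARNT library.

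**Figure D3:**
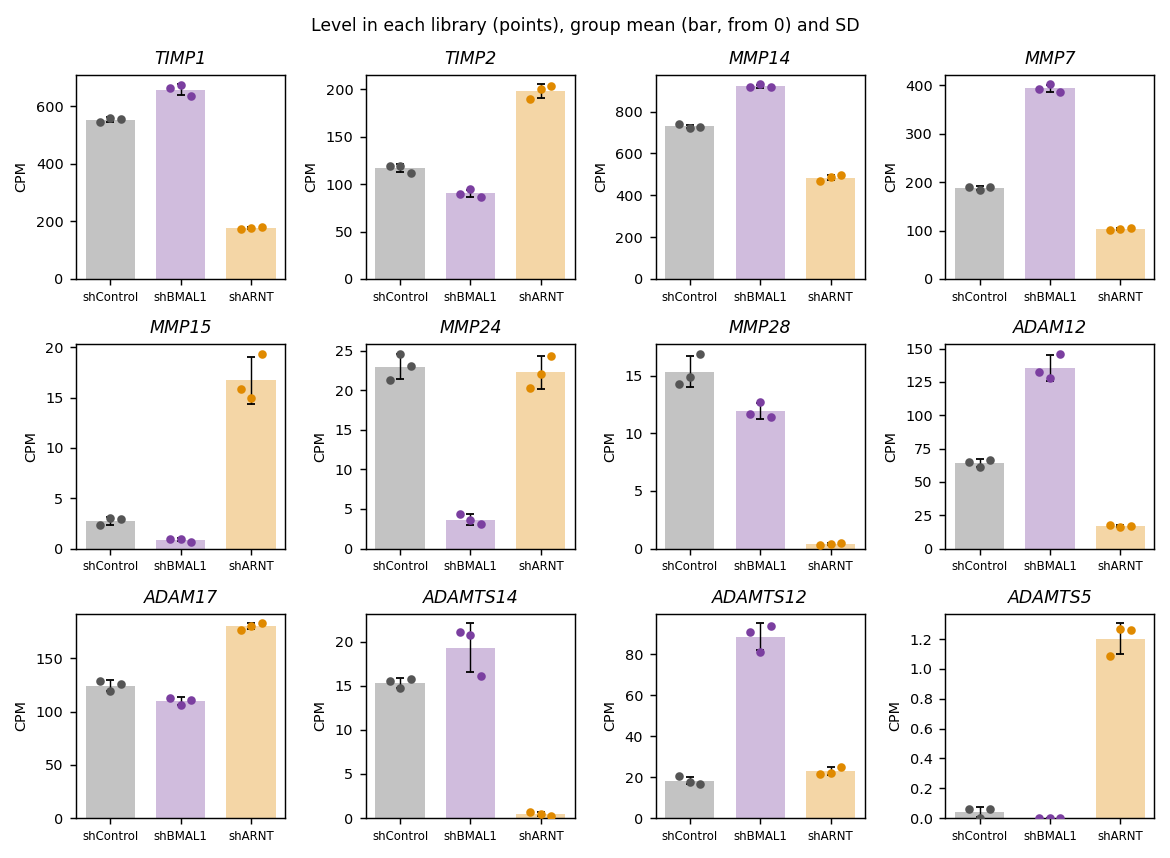
CPM (vertical axes, from 0) of 12 members in each of the 9 libraries, with points for libraries, bars for group means and whiskers for the SD (n = 3). TIMP1, MMP14, MMP7 and ADAM12 are lowest in shARNT and highest in shBMAL1, whereas TIMP2, MMP15 and ADAM17 have the opposite order. ADAMTS5, with 1.09 to 1.26 CPM in shARNT, has no count in any shBMAL1 library.

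The membrane-type MMPs did not move together. MMP14 (chr14:23305769-23318250, plus strand), a collagenase of the cell surface and activator of MMP2, had 739, 722 and 727 CPM in shControl, 917, 930 and 916 CPM in shBMAL1, and 471, 486 and 498.4 CPM in shARNT. It was thus 1.5-fold lower in shARNT and 1.26-fold higher in shBMAL1 with no overlap between groups, and the log2 fold changes were -0.59 ± 0.0335 (adjusted p = 1.75e-12) and 0.34 ± 0.0333 (adjusted p = 3.74e-08). MMP15 (chr16:58059658-58080805, plus strand), a related transmembrane MMP, had 2.31, 3.04 and 2.97 CPM in shControl, 0.936, 0.987 and 0.676 CPM in shBMAL1, and 15.8, 14.9 and 19.3 CPM in shARNT. Its level in every shARNT library was above that of every other library, with a log2 fold change of 2.59 ± 0.139 (adjusted p = 7.05e-13), and in shBMAL1 the log2 fold change was -1.67 ± 0.199 (adjusted p = 4.91e-07).

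MMP24 (chr20:33814493-33864801, plus strand), a membrane-type MMP best known from the nervous system, had 21.3, 24.5 and 23.1 CPM in shControl, 4.36, 3.54 and 3.09 CPM in shBMAL1, and 20.3, 22.1 and 24.4 CPM in shARNT. The shBMAL1 libraries were all below the rest, and the shARNT and shControl libraries overlapped. The log2 fold change was -2.65 ± 0.112 (shBMAL1, adjusted p = 1.05e-13) and -0.05 ± 0.0910 (shARNT, adjusted p = 0.643), and the direct contrast gave 2.60 ± 0.111 (adjusted p = 1.69e-14). The antisense gene MMP24-AS1, which RefSeq lists as MMP24OS and which overlaps an exon of MMP24, had a log2 fold change of -0.35 ± 0.0631 in shBMAL1 and -0.75 ± 0.0637 in shARNT, and whether the counting used strand was not stated. MMP25, a membrane-type MMP held by a lipid anchor, had 3.63, 4.01 and 4.78 CPM in shControl, 2.02, 2.21 and 2.56 CPM in shBMAL1, and 4.65, 3.89 and 3.75 CPM in shARNT. It was lower in shBMAL1 (log2 -0.87 ± 0.167, adjusted p = 0.000154) and was not called in shARNT (-0.02 ± 0.155, adjusted p = 0.931). All 9 of its values held fractions of reads. MMP16 had 9, 6 and 9 counts in shARNT and 2 counts over all libraries of each other group, and MMP17 had 1 count in all.

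The gelatinases MMP2 and MMP9, which degrade denatured collagen and basement membrane collagen, were lower in shARNT from a low base. MMP9 (chr20:44637547-44645200, plus strand) had 1.05, 1.70 and 1.18 CPM in shControl, 1.46, 1.65 and 1.53 CPM in shBMAL1, and 0.227, 0.126 and 0.227 CPM in shARNT. The shARNT libraries were below all others, with a log2 fold change of -2.74 ± 0.343 (adjusted p = 3.89e-07), and shBMAL1 overlapped shControl (0.24 ± 0.261, adjusted p = 0.452). MMP2 (chr16:55423612-55540603, plus strand) had 1.20, 0.942 and 1.18 CPM in shControl, 0.702, 0.348 and 0.382 CPM in shBMAL1, and 0.278, 0.177 and 0.0504 CPM in shARNT. It was lower in both depletions, with log2 fold changes of -2.69 ± 0.443 (shARNT, adjusted p = 1.45e-05) and -1.21 ± 0.386 (shBMAL1, adjusted p = 0.0112), with no overlap with shControl. COL1A1, the only gene of the fibroblast list with more than 12 counts in a library, was lower in both depletions as well. Its log2 fold changes were -2.38 ± 0.0617 in shARNT and -2.73 ± 0.0635 in shBMAL1. A link of COL1A1 to the MMP2 values was not tested.

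A group of 9 MMP genes lies within 435 kb of chromosome 11 (chr11:102391239-102826461, GRCh37), and MMP7, its most abundant gene, was higher in shBMAL1 and lower in shARNT. MMP7 (chr11:102391239-102401481, minus strand), the matrilysin made by epithelial and carcinoma cells, had 191, 183 and 190 CPM in shControl, 391, 402 and 386 CPM in shBMAL1, and 101, 103 and 105 CPM in shARNT. These groups stood well apart, with log2 fold changes of 1.07 ± 0.0372 (shBMAL1, adjusted p = 5.47e-15) and -0.87 ± 0.0379 (shARNT, adjusted p = 2.38e-14), and the direct contrast was -1.93 ± 0.0383 (adjusted p = 6.62e-20). The other members of this cluster had at most 61 counts in a library and are named here after their values were seen, because they share the cluster. MMP1, the interstitial collagenase, had 5, 8 and 7 counts in shControl, 49, 49 and 44 in shBMAL1, and 0, 1 and 0 in shARNT. MMP10, the stromelysin 2 that activates other MMPs, had 3, 5 and 9 counts in shControl, 50, 46 and 61 in shBMAL1, and 0, 3 and 0 in shARNT. For both genes every shBMAL1 library was above every other library, with log2 fold changes of 2.76 ± 0.381 for MMP1 and 3.13 ± 0.451 for MMP10. Both passed the low-count filter only with the shBMAL1 libraries, so this rise is given as a description without a test. Both were also lower in shARNT than in shControl. The ratio of shControl to shARNT was 24.0 for MMP1 (95% interval 3.83 to 993) and 6.79 for MMP10 (1.96 to 36.1), intervals that cover counting error only. Both were called lower there in the fit of all 9 libraries. In a fit of the 6 shControl and shARNT libraries alone neither gene passed the filter, so this fall is also given without a test.

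Of the remaining genes of the cluster, MMP13, another collagenase, had 0 counts in every shControl library, 9, 7 and 8 in shBMAL1 and 6, 5 and 5 in shARNT. With 3 counts over the group as the floor, MMP13 was at least 7.73-fold higher in shBMAL1 and at least 4.45-fold higher in shARNT than in shControl. MMP3, stromelysin 1, had the reverse pattern in shBMAL1, with 14, 1 and 8 counts in shControl, 0 in all shBMAL1 libraries and 2, 0 and 2 in shARNT, and was at least 7.93-fold lower in shBMAL1. These limits take the counts of the higher group as they stand, without their counting error. Neither gene passed the low-count filter, so neither was tested. MMP3 and MMP10 are close paralogs, and how reads with several alignments were assigned was not stated. MMP8, MMP20 and MMP27 had 1, 3 and 5 counts over all 9 libraries, and MMP12 had none.

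**Figure D4:**
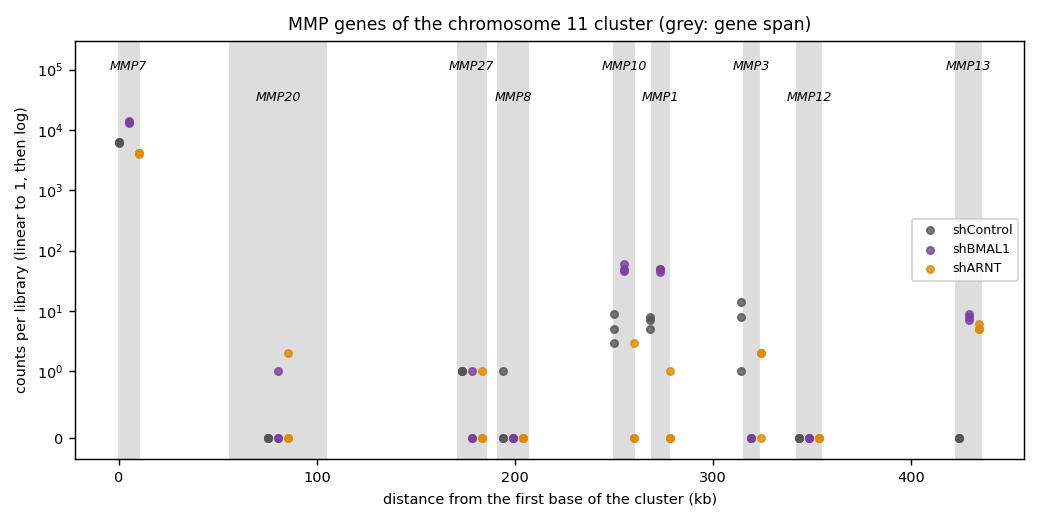
Counts in each library (vertical axis, linear to 1 and logarithmic above) of the 9 MMP genes of the chromosome 11 cluster against distance in kb from its first base, with grey bands for gene spans and colours for the groups. MMP7, MMP10 and MMP1 have their highest counts in shBMAL1, MMP13 has none in shControl, and MMP3 has none in shBMAL1.

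Among the other secreted MMPs, MMP28 fell 39.4-fold in shARNT. MMP28 (chr17:34083268-34122711, minus strand), also called epilysin and made by epithelia, had 14.3, 14.9 and 16.9 CPM in shControl, 11.7, 12.7 and 11.4 CPM in shBMAL1, and 0.303, 0.379 and 0.479 CPM in shARNT. The shARNT libraries kept 2.52% of the control level, with a log2 fold change of -5.30 ± 0.157 (adjusted p = 4.32e-17), while the fall in shBMAL1 was small (-0.36 ± 0.0994, adjusted p = 0.00385). MMP11, known from the stroma of carcinomas, was lower in both depletions at under 2 CPM, with log2 fold changes of -2.83 ± 0.368 in shARNT and -1.69 ± 0.333 in shBMAL1 (adjusted p = 6.44e-07 and 0.000207). MMP19 was not called in any comparison with all 9 libraries and had 5.03 to 7.07 CPM in all of them. MMP21 had 36 counts in total and was not tested.

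Of 9 tested ADAMs with protease activity, 3 were higher and 6 lower in shARNT, and 5 were higher and 2 lower in shBMAL1. These are called shares of 100% and 77.8%, beside backgrounds of 81.8% and 63.3% of all genes. The higher calls in shARNT include ADAM21, which passed the low-count filter only with the shARNT libraries. The share of 100% is thus set in part by the filter. ADAM9, an abundant sheddase of epithelial cells, had 1493, 1412 and 1400 CPM in shControl, 1713, 1707 and 1715 CPM in shBMAL1, and 554, 586 and 596 CPM in shARNT. The shARNT libraries thus kept 40.3% of the control level, with a log2 fold change of -1.31 ± 0.0363 (adjusted p = 1.39e-17), against 0.25 ± 0.0356 in shBMAL1 (adjusted p = 4.15e-06). An exon of ADAM9 overlaps TM2D2 on the opposite strand, whose log2 fold changes were -0.27 ± 0.0538 and 0.25 ± 0.0533. ADAM10 (chr15:58881008-59041990, minus strand), the constitutive sheddase of Notch and cadherins, had 427, 391 and 389 CPM in shControl, 531, 529 and 526 CPM in shBMAL1, and 270, 268 and 266 CPM in shARNT. ADAM17 (chr2:9628615-9696861, minus strand), which releases TNF and ligands of the EGF receptor, had 128, 119 and 126 CPM in shControl, 113, 106 and 110 CPM in shBMAL1, and 177, 180 and 183 CPM in shARNT. The groups did not overlap for either gene, and these sheddases moved in opposite directions in each depletion. ADAM10 had log2 fold changes of -0.59 ± 0.0386 (shARNT, adjusted p = 1.96e-11) and 0.39 ± 0.0384 (shBMAL1, adjusted p = 2.9e-08), and ADAM17 had 0.53 ± 0.0420 (adjusted p = 3.51e-10) and -0.18 ± 0.0426 (adjusted p = 0.00115). These changes were small, beside a median absolute log2 fold change over all genes tested of 0.66 in shARNT and 0.32 in shBMAL1. Both genes lost their calls in both depletions when a minimum fold of 1.5 was required. IAH1, which overlaps ADAM17 on the opposite strand, was lower in shARNT (-1.04 ± 0.0510).

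ADAM12 (chr10:127700950-128077046, minus strand), a sheddase of HB-EGF that is raised in many carcinomas, had 64.8, 61.1 and 66.7 CPM in shControl, 132, 128 and 146 CPM in shBMAL1, and 17.5, 15.9 and 17 CPM in shARNT. Its groups were widely separated, with log2 fold changes of 1.08 ± 0.0555 (shBMAL1, adjusted p = 2.1e-12) and -1.93 ± 0.0622 (shARNT, adjusted p = 1.59e-16), so that shARNT lay 8.06-fold below shBMAL1. ADAM28, a protease expressed by epithelial and lymphoid cells, had 3.24, 3.31 and 4.15 CPM in shControl, 2.75, 2.26 and 2.53 CPM in shBMAL1, and 0.606, 0.430 and 0.806 CPM in shARNT. The loss in shARNT was clear of the replicate spread (-2.53 ± 0.227, adjusted p = 2.65e-09). The fall in shBMAL1 (-0.50 ± 0.192, adjusted p = 0.0305) lost its call without shControl replicate 3, at -0.38 (adjusted p = 0.15). ADAM15, which carries an integrin-binding disintegrin domain, had 348, 356 and 359 CPM in shControl, 475, 494 and 506 CPM in shBMAL1, and 217, 223 and 229 CPM in shARNT. The groups did not overlap, and the fold changes on the log2 scale were 0.47 ± 0.0368 (shBMAL1, adjusted p = 1.14e-09) and -0.67 ± 0.0371 (shARNT, adjusted p = 1.2e-12). ADAM19 had the same order of groups, with -0.56 ± 0.0497 in shARNT and 0.37 ± 0.0485 in shBMAL1, and shares an exon region with CYFIP2 on the opposite strand, which was higher in both. ADAM8 was higher in shARNT (0.47 ± 0.170, adjusted p = 0.0157) and was not called in shBMAL1.

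ADAM21, a relative of ADAM20 best known from testis, had few counts except in shARNT and is named after its values were seen. It had 0, 0 and 2 counts in shControl, 0, 2 and 2 in shBMAL1, and 59, 57 and 55 in shARNT, a ratio of shARNT to shControl of 71.4 (95% interval 19.5 to 594, counting error only). It passed the low-count filter only with the shARNT libraries, so the rise is given without a test. Its paralog ADAM20, which lies nearby on chromosome 14, had 6, 6 and 2 counts in shARNT, shBMAL1 and shControl and was not tested. ADAM7, ADAM29 and ADAM33 had 9, 1 and 2 counts in all.

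The ADAMs without protease activity, which act as cell adhesion and receptor-binding proteins, gave 4 tested genes. ADAM11 had 7.84, 9.87 and 10.2 CPM in shControl, 6.79, 7.61 and 7.76 CPM in shBMAL1, and 5.83, 4.37 and 4.28 CPM in shARNT. It was lower in shARNT (-0.95 ± 0.135, adjusted p = 2.32e-06), and its call in shBMAL1 (-0.33 ± 0.131, adjusted p = 0.0353) was lost without shControl replicate 2, shControl replicate 3 or shBMAL1 replicate 1 (adjusted p = 0.114, 0.141 and 0.129). ADAM23, a receptor of the secreted protein LGI1, had 10.2, 7.81 and 11.6 CPM in shControl, 5.56, 5.22 and 7.38 CPM in shBMAL1, and 5.73, 7.03 and 7.21 CPM in shARNT, and was lower in both depletions (-0.57 ± 0.148 in shARNT and -0.71 ± 0.151 in shBMAL1). The depletions did not separate for ADAM23 in the direct contrast (0.14 ± 0.153, adjusted p = 0.421). ADAM22, another LGI1 receptor, had 8.32, 7.65 and 7.84 CPM in shControl, 8.16, 8.10 and 8.67 CPM in shBMAL1, and 14.2, 15.5 and 17.1 CPM in shARNT. Only the shARNT libraries stood apart, with a log2 fold change of 0.97 ± 0.0942 (adjusted p = 8.71e-09). ADAM32 had under 1 CPM and was called with TMM scaling only in the direct contrast (0.88 ± 0.403, adjusted p = 0.0543), a call that was lost without shBMAL1 replicate 2 (0.62, adjusted p = 0.211) or shARNT replicate 2 (0.76, adjusted p = 0.156). With library size alone it was also called higher in shARNT against shControl (0.80, adjusted p = 0.0678).

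Among the ADAMTS proteoglycanases, which cleave aggrecan and versican, ADAMTS9 fell in both depletions while ADAMTS15 rose. ADAMTS9 (chr3:64501330-64673676, minus strand) had 42.9, 41.6 and 39.4 CPM in shControl, 25.1, 22.3 and 23.2 CPM in shBMAL1, and 18.8, 17.9 and 19.6 CPM in shARNT. Both depleted groups lay below every control library. The log2 fold changes were -0.81 ± 0.0643 (shBMAL1, adjusted p = 1.46e-09) and -1.14 ± 0.0648 (shARNT, adjusted p = 1.75e-12), and ADAMTS9-AS2, an antisense gene whose span overlaps that of ADAMTS9 without a shared exon region, was lower in shARNT (-2.79 ± 0.222) and not called in shBMAL1 (-0.26 ± 0.180, adjusted p = 0.232). ADAMTS15 (chr11:130318540-130346540, plus strand) had 7.03, 7.14 and 7.66 CPM in shControl, 25.9, 23.0 and 25.7 CPM in shBMAL1, and 8.63, 10.4 and 10.5 CPM in shARNT. The rise was 3.42-fold in shBMAL1 (log2 1.77 ± 0.0934, adjusted p = 2.97e-12) and 1.35-fold in shARNT (log2 0.43 ± 0.0979, adjusted p = 0.000454). ADAMTS1, which cleaves versican and is induced by many stimuli, had 14.9, 13.8 and 13.8 CPM in shControl, 16.1, 14.2 and 15.3 CPM in shBMAL1, and 17.3, 19.9 and 24.7 CPM in shARNT, and was higher in shARNT (0.54 ± 0.103, adjusted p = 7.53e-05). Its neighbour on chromosome 21, ADAMTS5, the main aggrecanase of cartilage, is named after its values were seen. It had 2, 0 and 2 counts in shControl, 0 in all shBMAL1 libraries and 43, 50 and 50 in shARNT, and was at least 41.2-fold higher in shARNT than in shBMAL1. This limit uses the same floor of 3 counts and leaves out the counting error of the shARNT counts. ADAMTS5 passed the low-count filter only with the shARNT libraries, so its rise is given without a test. Its call in shBMAL1 against shControl (adjusted p = 0.0654) rested on 4 control counts and was lost without either shControl replicate 1 or 3 (adjusted p = 0.144 and 0.147) or without any 1 shBMAL1 library (adjusted p = 0.116 to 0.118). ADAMTS4 and ADAMTS8 had 25 and 14 counts in all and were not tested.

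The 3 procollagen N-proteinases, which trim the amino-terminal propeptide of fibrillar collagens, were all lower in shARNT (background 41.3%) and all higher in shBMAL1 (background 31.9%). ADAMTS14 (chr10:72432262-72522197, plus strand) had 15.5, 14.7 and 15.8 CPM in shControl, 21.1, 20.7 and 16.1 CPM in shBMAL1, and 0.707, 0.430 and 0.277 CPM in shARNT. It was left at 3.07% of the control level in shARNT (log2 -5.02 ± 0.184, adjusted p = 1.38e-15), and the small rise in shBMAL1 (0.33 ± 0.114, adjusted p = 0.0179) had no overlap with shControl. ADAMTS2 (chr5:178537854-178772462, minus strand) had 139, 132 and 131 CPM in shControl, 152, 150 and 156 CPM in shBMAL1, and 47.0, 46.6 and 46.6 CPM in shARNT. ADAMTS3 had 9.94, 8.69 and 10.2 CPM in shControl, 13.5, 13.0 and 14 CPM in shBMAL1, and 5.66, 5.74 and 6.53 CPM in shARNT. Neither gene had overlapping groups. The log2 fold changes in shARNT and shBMAL1 were -1.52 ± 0.0431 and 0.19 ± 0.0409 for ADAMTS2 (adjusted p = 2.06e-17 and 0.000441), and -0.68 ± 0.102 and 0.49 ± 0.0968 for ADAMTS3 (adjusted p = 4.31e-06 and 0.000201).

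Of the 6 other ADAMTS genes tested, 3 were higher and 3 not called in shBMAL1, and 2 were higher and 1 lower in shARNT. The called share of 50% in each comparison lay below the backgrounds of 63.3% and 81.8%. The higher calls in shBMAL1 include ADAMTS6, which entered the test only through the shBMAL1 libraries. The share in shBMAL1 is thus set in part by the filter. ADAMTS12 (chr5:33523640-33892124, minus strand), which cleaves the cartilage protein COMP, had 20.5, 17.8 and 16.7 CPM in shControl, 90.8, 81.2 and 93.7 CPM in shBMAL1, and 21.4, 22.2 and 25.2 CPM in shARNT. It was 4.83-fold higher in shBMAL1 (log2 2.27 ± 0.0780, adjusted p = 4.48e-15) and 1.25-fold higher in shARNT (log2 0.32 ± 0.0815, adjusted p = 0.0013). ADAMTS7, which also cleaves COMP, had 76.0, 78.5 and 82.5 CPM in shControl, 115, 116 and 123.2 CPM in shBMAL1, and 74.7, 73.9 and 77.2 CPM in shARNT, and was higher in shBMAL1 (0.58 ± 0.0467, adjusted p = 1.9e-09). ADAMTS10 (chr19:8645124-8675620, minus strand), which acts on fibrillin microfibrils, had 120, 145 and 149 CPM in shControl, 137, 139 and 127 CPM in shBMAL1, and 61.2, 63.1 and 56.8 CPM in shARNT. Only the shARNT libraries stood apart from the controls (-1.20 ± 0.0661, adjusted p = 1.08e-12). ADAMTS13, the protease that cleaves von Willebrand factor, had 15.9, 18.9 and 21.6 CPM in shControl, 18.8, 20.7 and 19.7 CPM in shBMAL1, and 32.6, 32.1 and 31.8 CPM in shARNT, and was higher in shARNT (0.78 ± 0.0829, adjusted p = 3.94e-08). ADAMTS6 had 7, 6 and 10 counts in shControl, 33, 18 and 26 in shBMAL1, and 7, 10 and 4 in shARNT, and passed the low-count filter only with the shBMAL1 libraries, so its log2 fold change of 1.68 ± 0.430 in shBMAL1 is given without a test. With halved counts it did not pass. ADAMTS16 was not called in any comparison. ADAMTS18 and ADAMTS19 had 8 and 2 counts in all.

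Genes that activate, inhibit or carry these proteases to their place were examined as a list of 26, of which 23 were tested. In shARNT, 5 were higher and 17 lower, and in shBMAL1, 11 were higher and 9 lower, with medians of -0.62 and 0.08. The direct contrast called 6 higher and 15 lower in shARNT than in shBMAL1, a share of 91.3% beside a background of 81.2%. Of all genes tested, 40.1% were higher and 41.1% lower there. Against shControl, the called shares were 95.7% (shARNT) and 87.0% (shBMAL1), beside the backgrounds of 81.8% and 63.3% given above. PCSK6, a proprotein convertase that activates precursors, had 858 ± 44.3 CPM in shControl and was down to 65.8 ± 1.90 CPM with ARNT depleted (log2 -3.70 ± 0.0450) and to 556 ± 12.4 CPM with BMAL1 depleted (log2 -0.62 ± 0.0398). PCSK5, a related convertase, fell to 32.5% in shARNT and rose to 167% in shBMAL1, and FURIN fell in both, to 65.4% and 55.6%. Of the 4 convertases tested, 3 were thus lower and PCSK7 was higher in shARNT (0.53 ± 0.0519). In the plasminogen system, which feeds into MMP activation, PLAT, tissue plasminogen activator, rose from 4.02 ± 0.666 to 34.5 ± 0.490 CPM in shBMAL1 (log2 3.10 ± 0.110) and to 6.95 ± 0.980 CPM in shARNT (log2 0.79 ± 0.121). SERPINE2, which inhibits plasminogen activators, rose to 181% in shBMAL1 and fell to 34.5% in shARNT. PLAU, urokinase, was lower in shARNT (-1.63 ± 0.222, adjusted p = 1.19e-06). The 2 plasminogen activators thus moved in opposite directions in shARNT. CD44, a cell-surface receptor that binds MMP7 and MMP14, rose from 1053 ± 30.3 CPM to 2872 ± 106 CPM in shBMAL1 and fell to 541 ± 12.8 CPM in shARNT. FRMD8, which stabilises the complex of ADAM17 with iRhoms at the cell surface, rose in shARNT (1.84 ± 0.0779, adjusted p = 1.41e-14) and was not called in shBMAL1 (-0.01 ± 0.0854, adjusted p = 0.911). The iRhom genes did not move together in shARNT. RHBDF1 rose there (0.99 ± 0.0437, adjusted p = 2.5e-14) and RHBDF2 was slightly lower (-0.11 ± 0.0404, adjusted p = 0.0205).

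A further list held the ADAMTS-like proteins, which share the ancillary domains of ADAMTS enzymes without the protease, and ADAMTS substrates, with 6 of 12 genes tested. By edgeR and by DESeq2 none was higher and 4 were lower in shARNT, where the other two, PAPLN and BCAN, had log2 fold changes of -0.09 and -0.11, and 2 were higher and 3 lower in shBMAL1, with medians of -1.54 and -0.11. The called shares were 66.7% in shARNT (background 81.8%) and 83.3% in shBMAL1 (background 63.3%). ADAMTSL4, which binds fibrillin, started at 55.5 ± 3.35 CPM in shControl and fell to 27.7% of that with BMAL1 depleted (15.4 ± 0.990 CPM) and to 4.93% with ARNT depleted (2.73 ± 0.391 CPM). ADAMTSL3 fell to 43.7% and 10.4% in the same groups, and ADAMTSL5 had log2 fold changes of -0.22 ± 0.0844 in shBMAL1 and -1.98 ± 0.0938 in shARNT. PAPLN, which encodes papilin, rose from 13.7 ± 0.742 to 96.8 ± 4.12 CPM in shBMAL1 (log2 2.82 ± 0.0617, adjusted p = 9.31e-18) and was not called in shARNT (-0.09 ± 0.0679, adjusted p = 0.234). VCAN, which encodes the substrate versican, rose from 619 ± 55.9 to 832 ± 71.7 CPM in shBMAL1 and fell to 290 ± 21.1 CPM in shARNT.

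Set side by side, the depletions differed for most members, with 92.5% called in the direct contrast, beside 81.2% of all genes tested. The calls include the 5 members that passed the low-count filter only with 1 group. The widest differences in the direct contrast among members with a mean of at least 1 CPM were -5.35 ± 0.181 for ADAMTS14, -4.94 ± 0.160 for MMP28 and 4.26 ± 0.166 for MMP15 on the log2 scale (adjusted p = 3.67e-16, 1.88e-16 and 3.66e-15). TIMP1 and TIMP2 differed by -1.89 ± 0.0364 and 1.13 ± 0.0458 (adjusted p = 4.36e-20 and 6.51e-15). The 3 members without a call in this contrast were ADAM23, MMP19 and ADAMTS16.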

How the data were processed

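RNA from 9 A498 cultures (3 per group, groups as in the sample titles) was sequenced as stranded mRNA libraries. The deposited values were expected counts per gene, which the authors exported without normalization. The study's methods name SeqMan NGen and ArrayStar with GRCh37, whereas the submitters' processing notes list hg38, STAR and DESeq2. Strand use and the handling of reads with several alignments were not given in the sources used here. The table held 27716 rows. A value of 0.05, which stood for no reads, was set to 0, rows of 43 repeated names were summed, 28 rows named by a date were kept apart, and values were rounded to whole numbers.

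All 9 libraries entered 1 quasi-likelihood fit in edgeR 4.0.16 (R 4.3.3) with TMM scaling and group as the only factor. The filter filterByExpr left 15551 genes, and the threshold was 0.1 for p-values adjusted by Benjamini-Hochberg. The code was tested on simulated data. Totals of 35269851 to 36099075 counts set the precision. Replicates of a group differed by more than sampling noise and none were merged. The labels call replicates biological without naming separate infections, so p-values measure the spread between these cultures. Intervals for ratios of low counts are exact binomial intervals at 95%. Gene positions come from GENCODE release 44 lifted to GRCh37 and promoters from RefSeq GRCh38.p14.

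The members and lists were chosen with earlier results of these data known. Values in every library were given for TIMP1, TIMP2, TIMP3, TIMP4, MMP2, MMP9, MMP14, ADAM10 and ADAM17 and, in each role group and depletion, for up to 3 called members with the largest change and a mean of at least 1 CPM. Up to 5 genes of each further list were named likewise. The values of 1 gene of these lists are not reported here. Libraries with the same replicate number did not deviate together across groups (r from -0.0410 to 0.0749), so the numbers were not taken as pairs.

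Alternatives were other scalings, no low-count filter, DESeq2 1.42.0, fits of 6 libraries, a minimum fold of 1.5, a replicate block, halved counts and each library left out.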

Additional observations from a re-analysis of the deposited data

Results flagged for a closer look

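The direct contrast of shARNT with shBMAL1 tested whether the depletions differed for each member, in the quasi-likelihood fit of edgeR with all 9 libraries, and 28 of the 29 tested members named by rule differed at an adjusted p under 0.1. The rule had fixed TIMP1, TIMP2, MMP2, MMP9, MMP14, ADAM10 and ADAM17 by name and had chosen the others among members called in either depletion. In this contrast, 92.5% of tested members and 81.2% of all genes were called. All values here are log2 fold changes, negative where shARNT was lower than shBMAL1. No explanation was weighed.

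The inhibitors differed in opposite directions, with -1.89 for TIMP1 and 1.13 for TIMP2. Among MMPs, shARNT was lower for MMP28 (-4.94), MMP9 (-2.98), MMP7 (-1.93), MMP2 (-1.49) and MMP14 (-0.93), and it was higher for MMP15 (4.26), MMP24 (2.60) and MMP25 (0.86). For MMP24 and MMP25 the shARNT libraries overlapped those of shControl, and the shBMAL1 libraries were lower.

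Among ADAMs, shARNT was lower for ADAM12 (-3.01), ADAM28 (-2.03), ADAM9 (-1.57), ADAM15 (-1.14), ADAM10 (-0.98) and ADAM11 (-0.61). It was higher for ADAM22 (0.91) and ADAM17 (0.71).

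Among ADAMTS genes, shARNT was lower for ADAMTS14 (-5.35), ADAMTS12 (-1.95), ADAMTS2 (-1.71), ADAMTS15 (-1.34), ADAMTS3 (-1.18), ADAMTS10 (-1.16), ADAMTS7 (-0.65) and ADAMTS9 (-0.33). It was higher for ADAMTS13 (0.71) and ADAMTS1 (0.44).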

How the results depend on the processing

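Counts of members called moved by more than 1.5 times only when a minimum fold of 1.5 was required, which lowered them from 11 to 6 (higher in shARNT), from 17 to 7 (higher in shBMAL1) and from 13 to 4 (lower in shBMAL1). The same limit lowered the regulator list from 11 to 4 and from 9 to 2 (higher and lower in shBMAL1) and from 6 to 3 (higher in shARNT than in shBMAL1), the ADAMTS-like list from 2 to 1 (higher in shBMAL1), and all genes called from 12722 to 6965 (shARNT), 9851 to 2111 (shBMAL1) and 12630 to 6831 (direct contrast).

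With library size alone in place of TMM, the median of all genes moved to 0.23 (shARNT), 0.05 (shBMAL1) and 0.18 (direct contrast), and the share of calls that were higher rose from 49.6% to 60.5%, from 50.3% to 55.9% and from 49.4% to 58.6%. The ADAMTS-like list then had 1 gene higher in shARNT in place of 0. Small values changed sign under that scaling in shARNT for ADAMTS16 (0.22), ADAMTS7 (0.17, adjusted p = 0.00253 in edgeR), MMP19 (0.12), MMP24 (0.19, adjusted p = 0.0611), MMP25 (0.22) and PAPLN (0.15, adjusted p = 0.0525), in shBMAL1 for ADAMTS10 (0.0079) and FRMD8 (0.034), and in the direct contrast for MMP19 (0.056). None of these was called with TMM, and only those with a p given here passed 0.1. ADAM32 in shARNT (0.80, adjusted p = 0.0678) and ADAM23 in the direct contrast (0.33, adjusted p = 0.0554) also gained a call.

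Leaving out each library in turn gave 11 to 11 members higher and 22 to 23 lower in shARNT, 17 to 18 and 10 to 13 in shBMAL1, and 11 to 13 and 25 to 26 in the direct contrast. For the regulator list the ranges were 5 to 5 and 16 to 17, 10 to 12 and 9 to 9, and 6 to 7 and 15 to 15, and for the ADAMTS-like list 0 to 0 and 4 to 4, 2 to 2 and 2 to 3, and 0 to 0 and 5 to 5. Signs turned only for values that were not called with all libraries, and their ranges over the libraries left out were -0.0822 to 0.0870 (ADAMTS16), -0.116 to 0.0160 (MMP24) and -0.114 to 0.0982 (MMP25) in shARNT, -0.132 to 0.0184 (ADAMTS10), -0.0373 to 0.179 (ADAMTS13), -0.217 to 0.0484 (ADAMTS16), -0.0709 to 0.0543 (FRMD8) and -0.0841 to 0.0835 (MMP19) in shBMAL1, and -0.0370 to 0.193 (ADAMTS16) in the direct contrast. At the far end of these ranges ADAMTS10 (without shControl replicate 1, adjusted p = 0.0418) and ADAMTS13 (without shControl replicate 3, adjusted p = 0.0768) were called. Calls were also gained by ADAMTS7 in shARNT (-0.10, adjusted p = 0.0818, without shControl replicate 1), by MMP19 in shARNT and the direct contrast (-0.28 and -0.30, adjusted p = 0.0800 and 0.0667, without shARNT replicate 1) and by ADAM23 in the direct contrast (0.30, adjusted p = 0.0959, without shBMAL1 replicate 3). Without shARNT replicate 2, MMP1 and MMP10 moved to -5.85 and -5.62 in shARNT, and without shControl replicate 3, ADAM21 moved to 8.70, values that rest on 0 to 3 counts in a group. ADAMTSL5 lost its call in shBMAL1 without shControl replicate 2 or shBMAL1 replicate 2 (-0.16 in both).

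The replicate block changed no call of a tested member or named gene, with 11 members higher and 22 lower in shARNT, and moved the calls over all genes from 12722 to 12683, 9851 to 9832 and 12630 to 12592. The numbers of the labels did not pair the samples. Other size factors changed no call of these genes. DESeq2 and no filter ended the call of ADAM32 in the direct contrast. No filter also tested more genes, and called MMP13 and MMP16 higher and MMP3 lower in shARNT, MMP16 higher in the direct contrast, MMP13 higher and MMP3 lower in shBMAL1, and 2 and 1 more of the regulator list lower in shARNT and shBMAL1. With halved counts ADAMTS5 lost its call in shBMAL1 (-2.76, adjusted p = 0.134), and ADAM32 and ADAMTS6 left the test, which took the members from 17 to 16 higher and 13 to 12 lower in shBMAL1 and from 12 to 11 and 25 to 24 in the direct contrast. In fits of the 6 libraries compared, MMP1, MMP10 and ADAMTS6 were not tested in shARNT, nor ADAM21 and ADAMTS5 in shBMAL1. The minimum fold of 1.5 ended 41 calls among 168 single-gene results, which include results that were not called in the main fit. Other causes of these changes were not tested. The 17 members with counts that did not pass the filter had 1 to 40 counts over all libraries, too few at this depth for a test with the filter.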
